A study of Mus musculus with 10 samples.

Results

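The 39 genes described here encode proteins of the nucleolus that make, process and assemble ribosomes. They were taken from a list of nucleolar ribosomal RNA processing and ribosome assembly genes, by role, and all 39 were found among the 55414 gene identifiers of the count files. All 39 passed the filter on low counts that left 18654 genes for testing. RNA came from whole jejunum, the stretch of small intestine between duodenum and ileum, in 10 libraries from male C57BL/6J mice. The 5 control samples were RetSat flox/flox without the villin-Cre-ERT2 transgene, and the 5 RetSat ko samples were RetSat flox/flox with it. Animals of both groups received intraperitoneal tamoxifen for 5 days and then a high-fat diet (60% of kilocalories) for 14 weeks. Retsat encodes retinol saturase, an enzyme that acts on vitamin A. Within the gut the villin promoter drives Cre in the epithelium, so muscle, immune and stromal cells of the same tissue keep the floxed gene. Control samples lack the transgene altogether, so loss of Retsat and presence of an active Cre cannot be told apart. Ages are not given in the sources used here, and the labels do not state that every library is a different mouse, so the p-values speak only of the spread among these libraries, which may be technical. RetSat ko 1 stood apart from the rest of its group in the genes described. List counts that rest on it are given with and without it, and some single genes only without it.

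Ribosome production starts in the nucleolus, where RNA polymerase I transcribes a long precursor RNA. Small nucleolar ribonucleoproteins (snoRNPs) modify that precursor, the box C/D type by ribose methylation and the box H/ACA type by pseudouridylation. A large assembly called the small-subunit (SSU) processome folds and cleaves the part that becomes the small subunit, and other factors carry the pre-40S and pre-60S particles through maturation and export. In the small intestine, dividing cells of the crypts renew the epithelium continuously and are rich in this machinery, and the absorptive cells that leave the crypt for the villus lose much of it.

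All 39 genes had a higher value in RetSat ko than in control, by small amounts, and none passed the test. The log2 fold changes lay between 0.08 and 0.37 with a median of 0.20, a median fold of 1.15. By edgeR's quasi-likelihood test with Benjamini-Hochberg adjustment over all tested genes, 0 of 39 had an adjusted p under 0.05 (lowest 0.291, highest 0.797), in a comparison that called 0.0322% of all tested genes. At an unadjusted p under 0.05, 17 of 39 (43.6%) were higher in RetSat ko and 0 lower, where 6.79% of all tested genes were higher. The median log2 fold change of all tested genes was 0.02, and 53.9% of them had a higher value in RetSat ko. DESeq2 called 2 of the 39, Nip7 and Mrto4, where it called 0.569% of genes as higher, and limma-voom called 0. In bulk tissue, more RNA of a gene per cell and more cells that express it cannot be told apart.

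RetSat ko 1 was closer to the control libraries than to the rest of its group. Its value was nearer the control mean than the mean of RetSat ko 2 to 5 in 38 of 39 genes, and it lay below every control library in 21. RetSat ko 2, 4 and 5 lay above the control median in all 39 genes, and RetSat ko 3 in 34. RetSat ko 2 to 5 all lay above every control library in 24 of 39 genes, against 5.99% of all tested genes. With RetSat ko 1 included, only Nip7 and Mrto4 (2 of 39) had groups that did not overlap in that direction, where 1.58% of all tested genes did. When RetSat ko 1 was left out, edgeR called 16 of 39 as higher and 0 as lower, against 1.95% of all tested genes called as higher, and the median log2 fold change was 0.27. Those 16 were Fbl, Rrs1, Nip7, Noc2l, Npm1, Utp20, Mrto4, Nop56, Nolc1, Nop58, Nhp2, Utp4, Gnl3, Utp15, Wdr43 and Nop10. Leaving out any other single library left 0 of 39 called. RetSat ko 1 was singled out by its low values in these same genes. Leaving it out therefore raises these differences and narrows their spread, and the calls without it are not independent support.

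**Figure D1:**
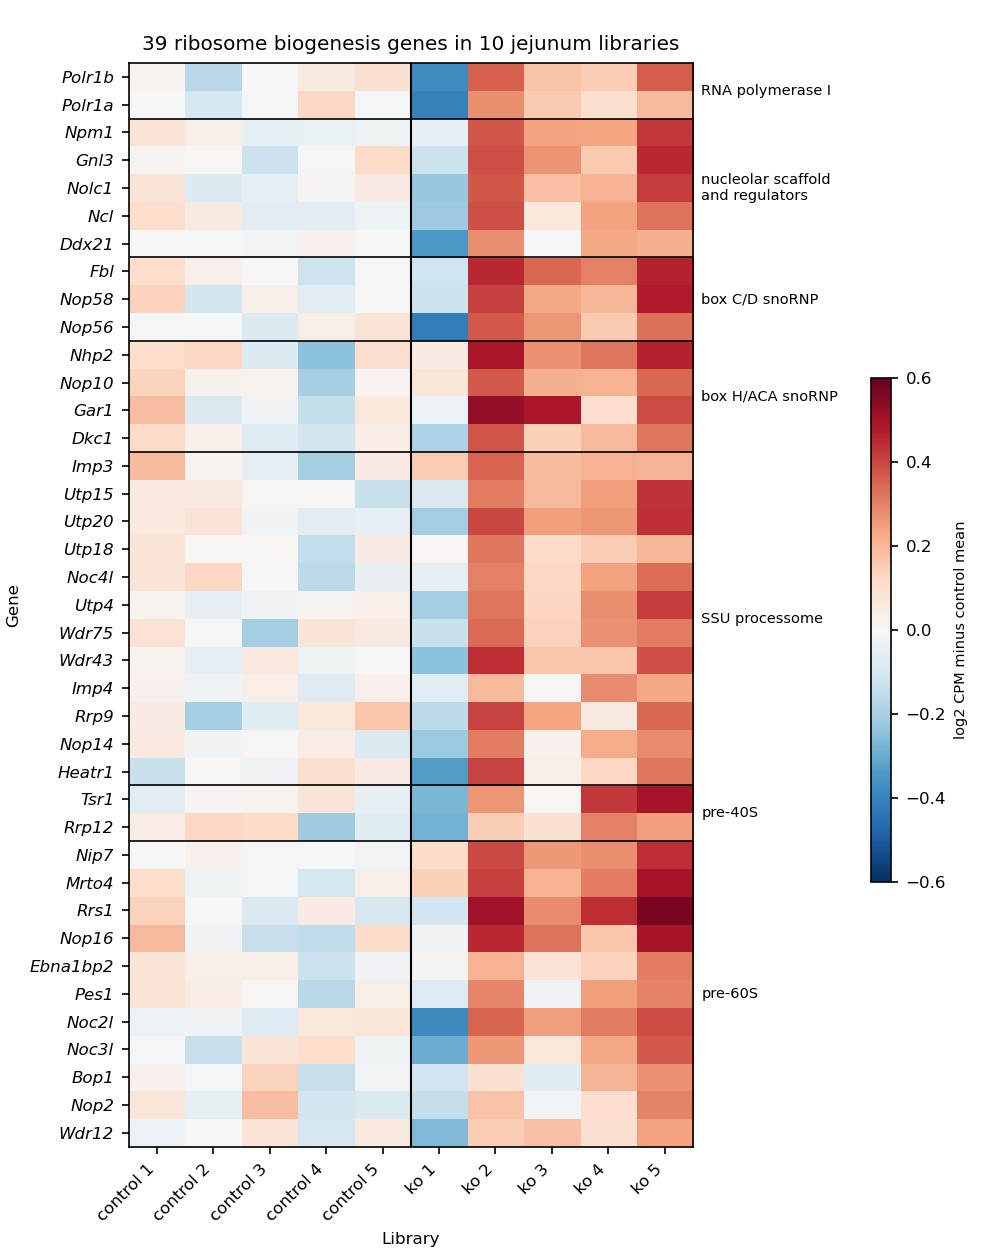
Level of each of the 39 genes (rows, ordered by role) in each of the 10 libraries (columns), as log2 CPM minus the gene's control mean (colour scale from -0.6 in blue to 0.6 in red). RetSat ko 2 to 5 are mostly red and RetSat ko 1 mostly blue or pale, with RetSat ko 1 the lowest of all libraries in 21 genes.

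The targeted gene separated the groups. Retsat was at 518, 387, 576, 340 and 381 CPM (counts in every 1000000, after TMM scaling of library sizes) in control 1 to 5 and at 16.8, 16.0, 16.4, 15.4 and 33.4 CPM in RetSat ko 1 to 5. This is a log2 fold change of -4.49 ± 0.277 (SE; adjusted p = 0.000101, edgeR), with 4.44% of the control mean left. RetSat ko 1 was therefore as low in Retsat as RetSat ko 2 to 4. Depth was 102844680 to 128730695 counts per library, and no member had fewer than 761 counts in any library. The 39 genes together took 0.107 to 0.185% of all counts. Jejunal epithelial genes were abundant, with the brush border sucrase-isomaltase gene Sis at 6070 ± 476 CPM in control (SD, n = 5), and the ileal bile acid gene Fabp6 was at 0.110 to 0.300 CPM.

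Polr1a and Polr1b encode subunits of RNA polymerase I that together form the catalytic centre of the enzyme. Polr1b (ENSMUSG00000027395.16, chromosome 2, 128942915 to 128968514) was at 14.4, 12.5, 14.1, 14.7 and 15.1 CPM in control 1 to 5 and at 10.8, 18.2, 16.0, 15.7 and 18.3 CPM in RetSat ko 1 to 5. RetSat ko 1 held the lowest value of the 10 and RetSat ko 2 to 5 the 4 highest. Its log2 fold change was 0.16 ± 0.127 (SE; adjusted p = 0.631, edgeR). Polr1a (ENSMUSG00000049553.12, chromosome 6, 71886037 to 71961919) was at 13.7, 12.8, 13.6, 15.0 and 13.6 CPM in control and at 10.2, 16.8, 15.3, 14.7 and 15.8 CPM in RetSat ko. RetSat ko 4 fell inside the control range here, and the log2 fold change of 0.08 ± 0.117 (adjusted p = 0.797, edgeR) was among the smallest of the 39. The 95% interval of the Polr1a difference ran from -0.17 to 0.34. Here and below, coordinates are those of the count files on GRCm39 and span the annotated exons of the gene.

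The 5 nucleolar scaffold and regulator genes had a median log2 fold change of 0.21 (range 0.09 to 0.25). Of the 5, 2 had an unadjusted p under 0.05 (edgeR), where 6.79% of all tested genes were higher at that level. Npm1 (ENSMUSG00000057113.14, chromosome 11, 33102287 to 33113206) encodes nucleophosmin, an abundant chaperone of the outer nucleolar layer. It was at 190, 184, 172, 174 and 175 CPM in control 1 to 5 and at 173, 231, 211, 211 and 240 CPM in RetSat ko 1 to 5. RetSat ko 1 lay within the control range and the other 4 above it. The means were 179 ± 7.29 CPM for control and 213 ± 25.9 CPM for RetSat ko (SD over 5 libraries), and the log2 fold change was 0.25 ± 0.0859 (SE; adjusted p = 0.314, edgeR). Gnl3 (ENSMUSG00000042354.8, chromosome 14, 30734390 to 30741109) encodes nucleostemin, a GTP-binding nucleolar protein of proliferating cells. It was at 19.2, 19.1, 17.4, 18.8 and 20.6 CPM in control and at 17.3, 25.0, 23, 21.2 and 26.2 CPM in RetSat ko. Its RetSat ko 1 value was the lowest of the 10 libraries, and the log2 fold change was 0.24 ± 0.103 (adjusted p = 0.372, edgeR). Of the other members, Nolc1, a chaperone of snoRNPs, had a log2 fold change of 0.21, Ncl (nucleolin, an RNA-binding protein) 0.17, and Ddx21, an RNA helicase, 0.09. In Ddx21 the spread was 0.770 CPM among control libraries and 10.9 CPM among RetSat ko libraries (SD), round means of 61.2 and 65.3 CPM. Ncl and Npm1 together made up 32.9% of the summed CPM of the 39 genes in control.

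All 3 box C/D snoRNP genes among the 39 had higher values in RetSat ko, with a median log2 fold change of 0.25. Of these, 2 had an unadjusted p under 0.05, against 6.79% of all tested genes that were higher at that level. Fbl (ENSMUSG00000046865.8, chromosome 7, 27869135 to 27878694) encodes fibrillarin, the methyltransferase of these particles. It was at 33.7, 32.0, 31.3, 28.7 and 31.0 CPM in control 1 to 5 and at 28.7, 43.0, 39.9, 38.7 and 43.4 CPM in RetSat ko 1 to 5. RetSat ko 1 was at the level of the lowest control library, and the other 4 were above all 5 controls. The log2 fold change was 0.31 ± 0.102 (SE; adjusted p = 0.314, edgeR), and 0.40 (adjusted p = 0.0235) without RetSat ko 1. Nop58 (ENSMUSG00000026020.10, chromosome 1, 59724130 to 59758203), a scaffold protein that holds the guide RNA, was at 55.8, 46.9, 51.9, 48.3 and 50.7 CPM in control and at 46.2, 67.4, 59.6, 58.2 and 70.6 CPM in RetSat ko. Again RetSat ko 1 was the lowest of the 10 and the other 4 the highest, with a log2 fold change of 0.25 ± 0.103 (adjusted p = 0.364, edgeR). Nop56, the partner of Nop58 in the scaffold, had a log2 fold change of 0.17 ± 0.125.

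The 4 box H/ACA snoRNP genes had the highest median of any role, 0.28 (range 0.18 to 0.32). Of the 4, 3 had an unadjusted p under 0.05, where 6.79% of all tested genes were higher at that level. Nhp2 (ENSMUSG00000001056.4, chromosome 11, 51510562 to 51514541), an RNA-binding core protein, was at 43.9, 44.6, 38.6, 34.3 and 43.8 CPM in control 1 to 5 and at 42.2, 57.5, 49.5, 51.2 and 56.4 CPM in RetSat ko 1 to 5. The groups overlapped through RetSat ko 1 alone, and the log2 fold change was 0.32 ± 0.0981 (SE; adjusted p = 0.292, edgeR). Nop10 (ENSMUSG00000027133.4, chromosome 2, 112092271 to 112093614), a small protein that braces the catalytic subunit, was at 37.0, 34.4, 34.3, 29.4 and 34.2 CPM in control and at 35.5, 43.8, 39.3, 39.1 and 43.1 CPM in RetSat ko. Here too 4 of 5 RetSat ko libraries lay above every control, and the log2 fold change was 0.25 ± 0.0777 (adjusted p = 0.306, edgeR). Gar1, the third accessory protein, had a log2 fold change of 0.31 ± 0.115, and Dkc1, the pseudouridine synthase itself, 0.18 ± 0.0993.

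The SSU processome was the largest role with 12 genes and a median log2 fold change of 0.20 (range 0.13 to 0.25). Of the 12, 5 had an unadjusted p under 0.05 (edgeR), against 6.79% of all tested genes that were higher at that level. Imp3 (ENSMUSG00000032288.10, chromosome 9, 56844759 to 56845682), which helps the U3 small nucleolar RNA pair with the precursor, was at 24.6, 21.8, 20.7, 18.7 and 22.2 CPM in control 1 to 5 and at 24.0, 27.5, 24.6, 24.9 and 24.8 CPM in RetSat ko 1 to 5. It was one of the genes in which RetSat ko 1 was above the control mean, and the log2 fold change was 0.22 ± 0.0776 (SE; adjusted p = 0.321, edgeR). Utp15 (ENSMUSG00000041747.4, chromosome 13, 98383353 to 98399549) belongs to the subcomplex that binds the precursor first. It was at 12.9, 12.8, 12.4, 12.4 and 11.2 CPM in control and at 11.6, 15.4, 14.2, 14.8 and 16.9 CPM in RetSat ko, a log2 fold change of 0.24 ± 0.0955 (adjusted p = 0.357, edgeR). RetSat ko 1 lay between the control libraries and the other 4 lay above them. Utp20 (ENSMUSG00000004356.9, chromosome 10, 88582469 to 88662666), a very large repeat protein, was at 13.5, 13.7, 12.7, 12.3 and 12.5 CPM in control and at 11.1, 17.2, 15.5, 15.6 and 17.6 CPM in RetSat ko. RetSat ko 1 was lowest and the other 4 highest, and the log2 fold change was 0.25 ± 0.112 (adjusted p = 0.395, edgeR). The remaining 9 genes of this role ranged from Heatr1 at 0.13 ± 0.121 to Utp4 and Wdr43 at 0.21. Utp4, Wdr43, Wdr75 and Heatr1 share the subcomplex of Utp15, Utp18 belongs to another, Imp4 is the partner of Imp3, Rrp9 binds U3, and Nop14 and Noc4l bind each other.

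Promoters were examined because these genes had values in the same direction. RefSeq windows of 300 bases (250 before and 50 after a gene start, GRCm38.p6) were matched by symbol for 34 of the 39 genes, giving 37 windows. CACGTG, the E-box bound by MYC and MAX among other factors and identical on both strands, occurred in 8 windows of 8 genes (21.6%), against 7.15% of all 32851 windows. CCGGAAGT, an ETS-type motif searched on both strands, occurred in 9 windows of 8 genes (24.3%, against 3.89%). CACGTG and CCGGAAGT cannot overlap each other. TATAAA, searched on both strands, occurred in 5.41% of the windows against 13.6% of all. The median GC content was 59.7% in these windows and 52.7% in all windows. The median log2 fold change was 0.18 (range 0.09 to 0.25) in the 8 genes with CACGTG and 0.20 (0.08 to 0.33) in the 26 with a window and without it. A match in these letters is a description of the window, and binding was not measured. The 8 genes were Utp20, Utp18, Utp4, Wdr43, Imp4, Pes1, Tsr1 and Nop2, with the match before the start in 3 and after it in 5. The stretches below belong to the 4 of them with the smallest p, all of the SSU processome. They are printed 5′ to 3′ on the gene's strand with CACGTG in capitals, at chr10:88826765-88826789 (minus) for Utp20, chr11:93885769-93885798 (minus) for Utp18, chr8:106893643-106893672 (plus) for Utp4 and chr17:71616220-71616249 (plus) for Wdr43, all on GRCm38.p6.
Utp20: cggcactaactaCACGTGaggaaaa
Utp18: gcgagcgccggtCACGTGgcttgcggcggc
Utp4: tgcgcaagcgcgCACGTGgggccggggcgg
Wdr43: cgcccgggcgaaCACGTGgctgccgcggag

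In Utp18 the match begins 20 bases before the start, and in Utp20, Utp4 and Wdr43 it begins at base 38, 16 and 18 after it. The 250 bases before the Utp18 start (chr11:93885767-93886016, minus strand, GRCm38.p6) are given in full as the example in which the match lies upstream.
Utp18 upstream: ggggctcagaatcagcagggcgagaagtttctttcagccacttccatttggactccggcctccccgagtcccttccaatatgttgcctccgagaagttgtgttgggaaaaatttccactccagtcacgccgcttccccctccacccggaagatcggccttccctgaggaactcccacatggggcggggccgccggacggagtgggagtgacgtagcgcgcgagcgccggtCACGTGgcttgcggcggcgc
Utp18 itself was at 18.1 ± 1.09 CPM in control libraries and 20.3 ± 1.63 CPM in RetSat ko libraries (SD over 5), and its log2 fold change was 0.16 ± 0.0737 (SE; unadjusted p = 0.0466, edgeR).

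The 2 pre-40S genes did not reach an unadjusted p of 0.05. Tsr1 (ENSMUSG00000038335.14, chromosome 11, 74788897 to 74800168), a GTPase-like factor of late pre-40S particles, was at 14.1, 15.0, 15.0, 15.7 and 14.3 CPM in control 1 to 5 and at 12.2, 17.9, 14.9, 20 and 21.1 CPM in RetSat ko 1 to 5. RetSat ko 1 was the lowest of the 10, RetSat ko 3 was inside the control range, and the log2 fold change was 0.22 ± 0.130 (SE; adjusted p = 0.514, edgeR). Of the Tsr1 exon bases, 32.3% overlap exons of Srr on the opposite strand, and counting did not use strand, so reads of the overlap cannot be told apart. Rrp12 (ENSMUSG00000035049.5, chromosome 19, 41851290 to 41884612), an export factor, was at 15.4, 16.2, 16.2, 12.8 and 14.1 CPM in control and at 12.1, 16.6, 15.9, 18.5 and 17.7 CPM in RetSat ko. The ranges overlapped widely, with a log2 fold change of 0.11 ± 0.113 (adjusted p = 0.71, edgeR).

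The 11 pre-60S genes held both the largest and some of the smallest differences, with a median log2 fold change of 0.16 and a range of 0.08 to 0.37. Nip7 (ENSMUSG00000031917.13, chromosome 8, 107783509 to 107787563), which acts in processing of the large-subunit precursor, was at 13.6, 13.8, 13.5, 13.6 and 13.4 CPM in control 1 to 5 and at 14.7, 18.1, 16.4, 16.6 and 18.7 CPM in RetSat ko 1 to 5. Every RetSat ko library was above every control, and the SD among control libraries was 0.155 CPM. The log2 fold change was 0.31 ± 0.0731 (SE, 95% interval 0.15 to 0.47), with an unadjusted p of 0.00103 and an adjusted p of 0.291 (edgeR), while DESeq2 gave an adjusted p of 0.0218. Mrto4 (ENSMUSG00000028741.14, chromosome 4, 139074746 to 139079887), a relative of the stalk protein P0 that holds its place on the particle, was at 17.8, 16.2, 16.4, 15.3 and 16.9 CPM in control and at 18.2, 22.1, 19.1, 20.5 and 23.4 CPM in RetSat ko. Its groups also did not overlap, and the log2 fold change was 0.33 ± 0.0801, with an adjusted p of 0.291 by edgeR and 0.043 by DESeq2. Rrs1 (ENSMUSG00000061024.9, chromosome 1, 9615633 to 9617680), which helps bring the 5S RNA into the particle, was at 16.7, 15.1, 14.2, 15.7 and 14.1 CPM in control and at 13.9, 21.7, 18.6, 20.8 and 22.7 CPM in RetSat ko. Its log2 fold change of 0.37 ± 0.118 was the largest of the 39 (adjusted p = 0.307, edgeR), although RetSat ko 1 was the lowest library. Nop16 (0.30 ± 0.110) and Ebna1bp2 (0.16 ± 0.0691), both early pre-60S factors, were the other members of this role at an unadjusted p under 0.05. The 3 genes of the PeBoW complex, which is needed for large-subunit RNA processing, had log2 fold changes of 0.16 ± 0.0881 (Pes1), 0.09 ± 0.0977 (Wdr12) and 0.08 ± 0.0843 (Bop1). Noc2l and its partner Noc3l were at 0.21 ± 0.125 and 0.15 ± 0.121, and Nop2, an RNA methyltransferase, at 0.09 ± 0.0908.

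**Figure D2:**
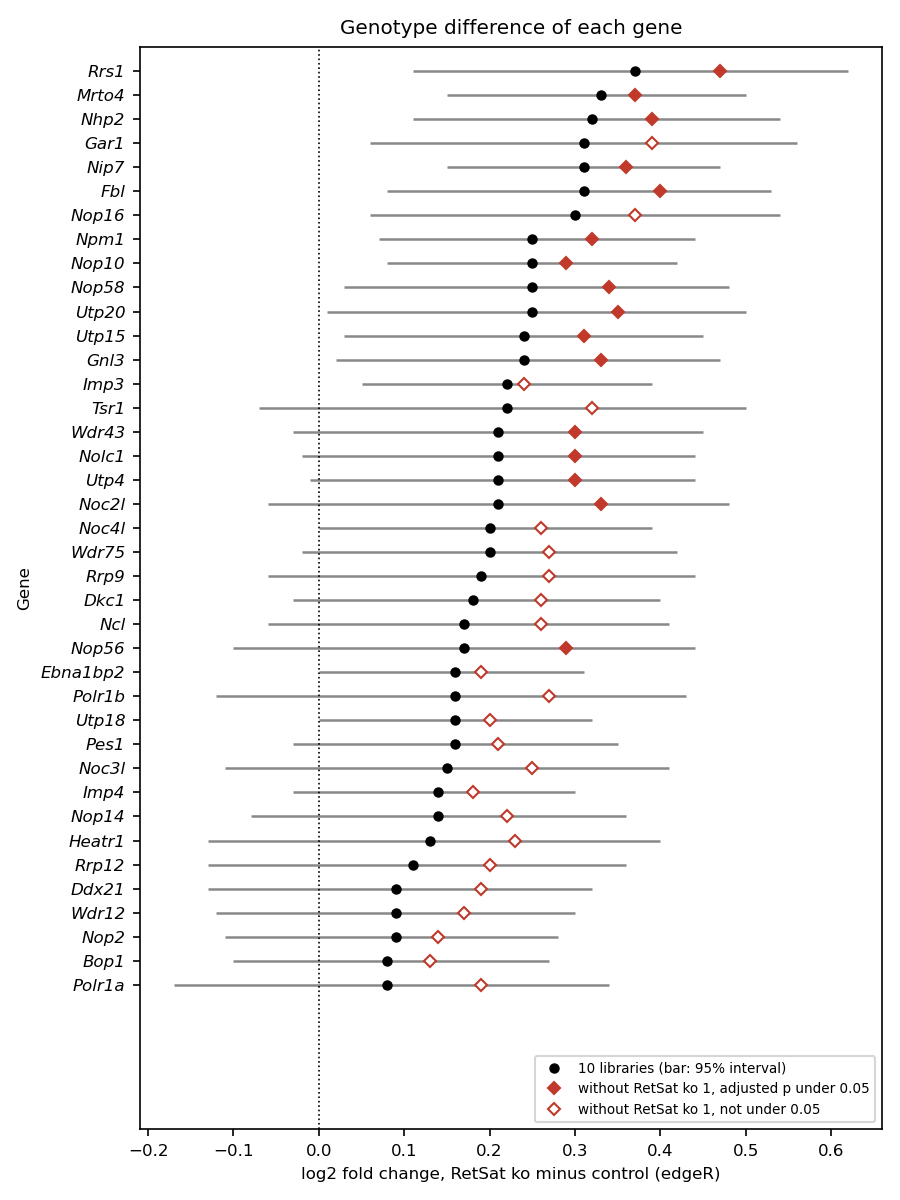
Log2 fold change of each gene, RetSat ko minus control, from edgeR (black points with 95% intervals, 10 libraries) and without RetSat ko 1 (red diamonds, filled where the adjusted p was under 0.05). All 39 black points lie above 0, between 0.08 and 0.37, and 16 of the diamonds are filled.

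The genes varied more among the RetSat ko libraries than among the control libraries. The SD of log2 CPM was larger in RetSat ko in 37 of 39 genes, with a median of 0.229 against 0.0863 in control. Over all tested genes the medians were 0.166 and 0.144, and 58.1% had a larger SD in RetSat ko. Among RetSat ko 2 to 5 alone the median SD of the 39 genes was 0.117, larger than in control in 28 of 39. Over all tested genes the median SD in those 4 libraries was 0.128, larger than in control for 42.1% of genes. This difference in spread was not tested.

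Levels per kilobase of annotated exon, which allow genes to be compared, covered a wide range. In control, Npm1 was highest at 67.2 ± 2.73 CPM per kilobase, followed by Nhp2 at 35.8 ± 3.90 and Nop10 at 30.5 ± 2.50 (SD, n = 5). Nhp2 and Nop10 differed by less than the sum of their SDs. Wdr12 was lowest at 0.922 ± 0.0481 CPM per kilobase, below Polr1a at 1.16 ± 0.0667 and Utp20 at 1.27 ± 0.0598. The annotated exons include every isoform, so genes with long minor isoforms read low on this scale. By exon length, the shortest 13 genes (924 to 2957 bases) had a median log2 fold change of 0.25, the middle 13 (3024 to 4340 bases) 0.18 and the longest 13 (4775 to 11955 bases) 0.17. Over all tested genes, the medians of the short, middle and long genes, split evenly by exon length, were 0.07, 0.02 and -0.03. The part of length in the differences was not tested.

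**Figure D3:**
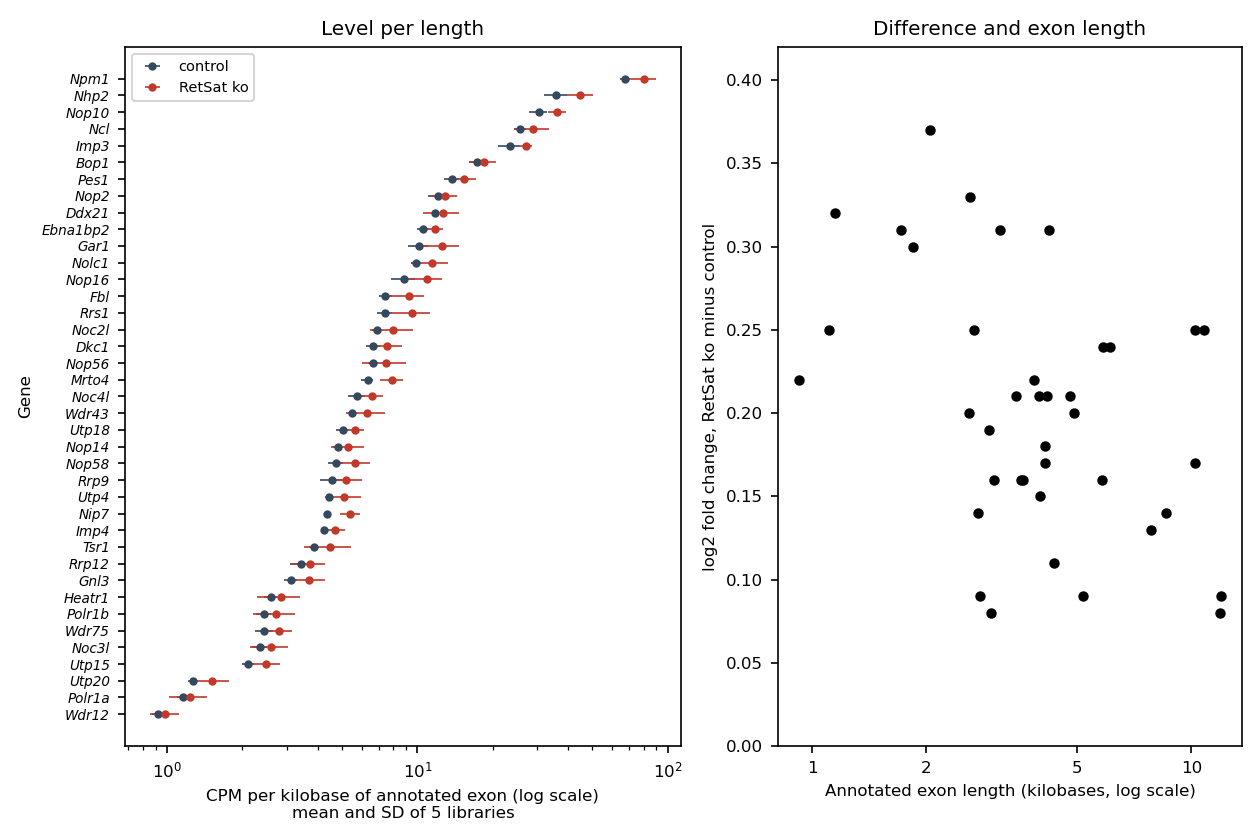
Left, level of each gene per kilobase of annotated exon in control and RetSat ko (mean and SD of 5 libraries each, log axis), from Npm1 at 67.2 to Wdr12 at 0.922 CPM per kilobase in control. Right, log2 fold change against exon length in kilobases (log axis), 1 point per gene, with the largest differences among genes of shorter exon length.

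Other genes of the same pathway, from 5 lists of 127 genes that hold none of the 39, gave smaller differences in the same direction. Of 126 tested, 112 had a higher value in RetSat ko and 14 a lower one, with a median log2 fold change of 0.14 (range -0.15 to 0.35). By edgeR 0 of 126 were called. At an unadjusted p under 0.05, 31 (24.6%) were higher and 0 lower, where 6.79% of all tested genes were higher. Among RNA polymerase I subunits and factors, 12 of 13 had a higher value, including Taf1d, a subunit of the promoter selectivity factor, at 0.33 ± 0.0927 and the subunit gene Polr1d at 0.21 ± 0.0644 (SE). Among snoRNP core and assembly genes it was 10 of 10, with Snu13, the core box C/D protein that binds the RNA kink-turn, at 0.26 ± 0.0776 and the assembly ATPase Ruvbl2 at 0.20 ± 0.0929. Of the further SSU processome and pre-40S genes, 39 of 44 had a higher value, among them the methyltransferase Emg1 (0.21 ± 0.0632) and the helicase Ddx47 (0.19 ± 0.0602). The pre-60S and export list had 39 of 46, with Rsl24d1, a placeholder for a ribosomal protein, at 0.24 ± 0.0793 and Surf6 at 0.29 ± 0.0982. The exosome, which trims precursor ends, had 12 of 13, with its subunits Exosc3 at 0.27 ± 0.0702 and Exosc5 at 0.22 ± 0.0719. Without RetSat ko 1, edgeR called 16 of the 126, 15 higher and 1 lower, where it called 1.95% of all tested genes as higher and 2.5% as lower. The lower one was the kinase gene Riok3 (-0.26), named here after its value was seen.

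Genes of the finished ribosome were also examined. All 79 cytosolic ribosomal protein genes had a higher value in RetSat ko, with a median log2 fold change of 0.22 (range 0.10 to 0.32), 73 at an unadjusted p under 0.05 and 0 called by edgeR. Over all tested genes, 6.79% were higher at that unadjusted level. When RetSat ko 1 was omitted, edgeR called 35 of the 79, all higher, against 1.95% of all tested genes, and the median was 0.25. Rpl36a was at 0.29 ± 0.0643 and Rpl31 at 0.26 ± 0.0599. Their summed level was 19300 ± 930 CPM over the control libraries and 22400 ± 1430 CPM over the RetSat ko libraries (SD, 5 of each). In this list RetSat ko 1, at 20700 CPM summed, lay within the control range of 18500 to 20900. For the 39 nucleolar genes it lay below the control range, with a sum of 1210 CPM in RetSat ko 1 and 1280 to 1410 CPM in control.

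Myc, a transcription factor gene known to drive ribosome biogenesis, was at 14.1, 9.88, 14.8, 13.4 and 13.9 CPM in control 1 to 5 and at 13.6, 20.9, 15.9, 18.3 and 22.0 CPM in RetSat ko 1 to 5. RetSat ko 1 lay within the control range and the other 4 above it. RetSat ko 2 to 5 all exceeded every control in 24 of the 39 nucleolar genes and in 5.99% of all tested genes. The log2 fold change of Myc was 0.46 ± 0.142 (SE; adjusted p = 0.300, edgeR), and 0.55 ± 0.128 (adjusted p = 0.041) without RetSat ko 1. Over the 10 genes of the Myc network list, 4 had a higher and 6 a lower value, including Mnt, a MAX-binding repressor, at -0.27 ± 0.125. In the absence of RetSat ko 1, edgeR also called Max, the partner of MYC, as lower (-0.40 ± 0.0835), a gene named after its value was seen. Of 12 p53 target genes, a set known to respond when ribosome assembly is disturbed, 4 had a higher and 8 a lower value, with a median of -0.07. By edgeR 0 were called, and 2 were higher and 0 lower at an unadjusted p under 0.05. Over all tested genes, 6.79% were higher and 5.45% lower at that level. Phlda3, at 0.74 ± 0.138, was the p53 target called as higher without RetSat ko 1, where 1.95% of all tested genes were. With all 10 libraries the log2 fold changes of this list reached at most 0.65, and the lowest adjusted p was 0.291 (edgeR).

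Markers of dividing cells followed a similar order across libraries. All 23 cell cycle genes had a higher value in RetSat ko, with a median log2 fold change of 0.29, 11 at an unadjusted p under 0.05 and 0 called by edgeR. The share of all tested genes higher at that unadjusted level was 6.79%. In the fit that omitted RetSat ko 1, edgeR called 16 of the 23, all higher, against 1.95% of all tested genes, and the median was 0.35. Birc5, a chromosomal passenger gene, was at 0.38 ± 0.106 and Tyms, of thymidylate synthesis, at 0.31 ± 0.0865. As a mean of log2 CPM relative to the mean of 10 libraries, the cell cycle list was at -0.03, -0.04, -0.22, -0.22 and -0.10 in control 1 to 5 and at -0.28, 0.27, 0.07, 0.24 and 0.31 in RetSat ko 1 to 5. On the same scale the 39 genes were at -0.04, -0.10, -0.11, -0.14 and -0.08 in control and at -0.24, 0.25, 0.07, 0.13 and 0.27 in RetSat ko. RetSat ko 1 was lowest and RetSat ko 5 highest in both lists. With the cell cycle level as a covariate in edgeR, the median log2 fold change of the 39 genes was -0.01, with 18 higher and 21 lower values.

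Of 12 crypt stem cell genes, 11 had a higher value in RetSat ko with a median of 0.21 (Sox9 0.47 ± 0.113), and all 10 Paneth cell genes did with a median of 0.83. The summed Paneth cell level overlapped widely, at 1130 to 3510 CPM in control and 2150 to 5250 CPM in RetSat ko. Only RetSat ko 3 was above control 5, the highest control library. With all 10 libraries edgeR called 0 in either list. At an unadjusted p under 0.05, 4 stem cell and 7 Paneth cell genes were higher, against 6.79% of all tested genes. Without RetSat ko 1, edgeR called 2 of the 12 stem cell genes as higher (Sox9 and Rgmb), against 1.95% of all tested genes. It called 0 of the 10 Paneth cell genes. Of these 10, 7 were higher at an unadjusted p under 0.05 in that fit, as were 2173 of 19001 tested genes. Of 18 absorptive enterocyte genes, 16 had a lower value with a median of -0.28, and edgeR called 0. At an unadjusted p under 0.05, 5 were lower, against 5.45% of all tested genes. Without RetSat ko 1, the median was -0.40 and edgeR called 3 as lower, Sis, Treh and Slc6a19, against 2.5% of all tested genes. The enterocyte list was at 0.22, -0.07, 0.43, -0.06 and 0.17 in control 1 to 5 and at 0.19, -0.24, -0.14, -0.27 and -0.22 in RetSat ko 1 to 5, on the log2 scale relative to the mean of 10 libraries. RetSat ko 1 thus lay among the control libraries in this list. With this level as a covariate, an alternative chosen after seeing the data, the median of the 39 genes was 0.08, with 30 higher and 9 lower values.

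**Figure D4:**
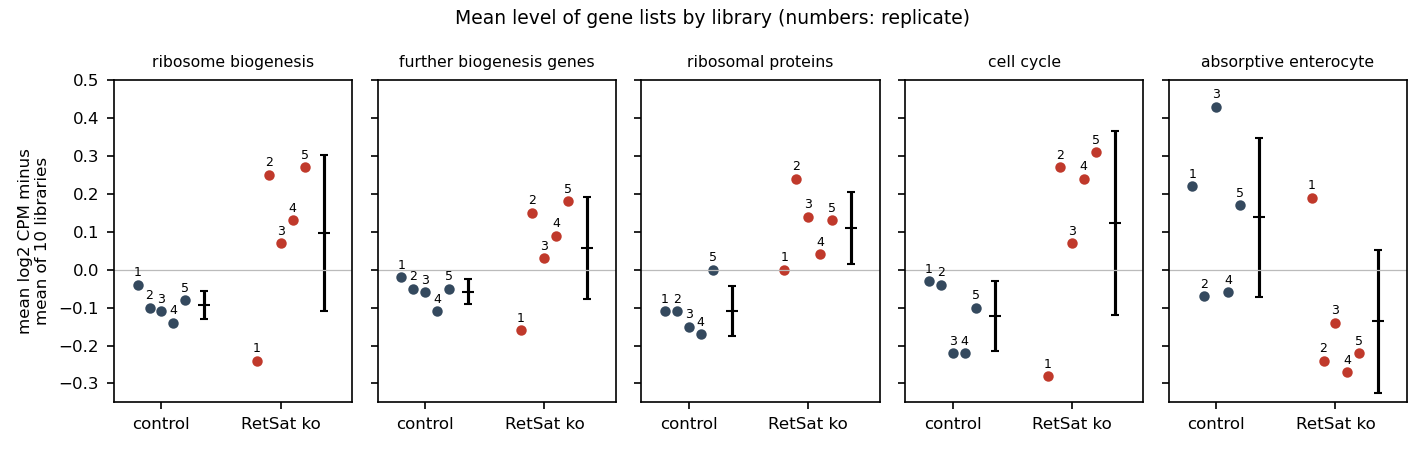
Mean log2 CPM of 5 gene lists in each library, relative to the mean of 10 libraries (points, numbered by replicate; bars, mean and SD of 5 libraries). RetSat ko 1 is the lowest library for the ribosome biogenesis and cell cycle lists (-0.24 and -0.28) and lies among the control libraries for the absorptive enterocyte list (0.19).

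RNA of other cell types also differed between libraries. The summed CPM of 13 pancreatic acinar genes was 26.8 to 319 in control and 37.3 to 3120 in RetSat ko, highest in RetSat ko 2. Without the 4 libraries highest in it (RetSat ko 1 and 2, control 4 and 5), the median log2 fold change of the 39 genes was 0.27, with 24 at an unadjusted p under 0.05 and higher in a comparison of 3 with 3 libraries, where 7.97% of all tested genes were. This also leaves out RetSat ko 1, whose omission alone gave a median of 0.27. With the acinar level as a covariate the median was 0.21. In that fit 16 of the 39 were higher at an unadjusted p under 0.05 (edgeR), as were 1185 of 18654 tested genes. The summed CPM of 8 B and plasma cell genes was 427 to 1100 in control and 557 to 1010 in RetSat ko. Without the 3 libraries highest in it (control 4 and 5, RetSat ko 3), the median was 0.20 and 3 of 39 (all higher) had an unadjusted p under 0.05, where 3.12% of all tested genes were higher. By mean log2 CPM relative to the mean of 10 libraries, this list was highest in RetSat ko 2 (2.17), which that comparison kept. Control 5, which it left out, was at -0.42 on that scale. All 8 T cell genes had a lower value in RetSat ko (median log2 fold change -0.42; summed 93.7 to 324 CPM in control and 89.9 to 194 in RetSat ko). All 6 smooth muscle genes had a higher value (median 0.27; 158 to 568 and 396 to 718 CPM), as did 5 of 8 myeloid genes (median 0.06; 156 to 236 and 153 to 216 CPM). Of 7 goblet cell genes 2 had a higher and 5 a lower value, with summed levels of 8500 to 10400 CPM in control and 6390 to 13100 in RetSat ko, highest in RetSat ko 1. With all 10 libraries edgeR called 0 of the 7, and 2 were higher and 0 lower at an unadjusted p under 0.05. Over all tested genes, 6.79% were higher and 5.45% lower at that level. Without RetSat ko 1 these were 1 higher and 3 lower, where 2173 of 19001 tested genes were higher and 2323 lower. EdgeR then called Fcgbp as lower (-0.44 ± 0.0928), where it called 2.5% of all tested genes as lower.

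Adipocyte markers also differed between libraries. Of 7 such genes, 6 had a higher value in RetSat ko with a median log2 fold change over the list of 2.11, and 0 were called by edgeR (0 at an unadjusted p under 0.05). Their mean level, in log2 relative to the mean of 10 libraries, was -0.99, -0.16, 0.80, -1.30 and -1.07 in control 1 to 5 and -1.13, -0.62, 1.14, 1.41 and 1.93 in RetSat ko 1 to 5. RetSat ko 3 to 5 were thus above every control library, and RetSat ko 1 and 2 within the control range. The defining gene Adipoq (adiponectin) was at 0 to 2.57 CPM in control and at 0.0392 to 6.58 CPM in RetSat ko. The summed level overlapped (133 to 266 and 132 to 272 CPM) and was mostly Cidec, a lipid droplet gene at 126 to 230 CPM in control. Without RetSat ko 1 the median of the list was 2.42, with 3 genes higher at an unadjusted p under 0.05 and 0 called by edgeR. In that fit 2173 of 19001 tested genes were higher at that unadjusted level. The part of T cell, smooth muscle, myeloid, goblet and adipocyte RNA in the differences was not tested.

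Near-identical copies touch some of these genes. Processed pseudogenes of at least 95% identity over at least 20% of the transcript were annotated for Fbl, Imp3, Mrto4, Nop56, Npm1 and Pes1, and each held at most 0.31% as many counts as its parent gene. A retained-intron transcript of Tulp4 also matched 57.6% of the Fbl transcript, and the Tulp4 gene held 97.0% as many counts as Fbl. Reads that fit both a gene and its copy are not counted by default, so some reads of these genes may be missing, and their number was not measured. Annotated snoRNA genes lie inside Ncl, Gnl3, Nop56, Nop58, Wdr43 and Tsr1, and these 11 snoRNA genes held 0 to 5 counts per library, except Snord91a in Tsr1 with 16 to 37.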

How the data were processed

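Each of the 10 jejunum libraries was assigned to its group by the genotype label. The labels' protocols name RNeasy extraction, DNase treatment and the NEBNext Ultra II RNA kit. The submitters' processing notes list Trimmomatic, STAR and the build GRCm39. Raw counts were deposited, 1 file a library. Per the file headers they came from featureCounts 2.0.1 over exons, with no option for strand or multiple alignments. No pair of libraries was a duplicate (chi-square per degree of freedom at least 49.6 over 45 pairs).

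Symbols matched 94.0% of 55414 identifiers, and 0.81% of counts lie on the rest. Tests ran in R 4.3.3 with edgeR 4.0.16 after filterByExpr and TMM scaling. Its robust quasi-likelihood F-test had no covariates and was two-sided, with p-values adjusted by Benjamini-Hochberg over 18654 genes with a threshold of 0.05. The SE is the log2 fold change divided by the square root of F. List levels used log2 CPM with a prior of 0.5. The settings varied were scaling (RLE, upper quartile), the filter (none, or 1 CPM in 5 libraries), DESeq2 1.42.0, limma 3.58.1 voom with and without sample weights, the replicate number as a block, leaving out each library, leaving out libraries rich in acinar or B cell RNA, and acinar or cell cycle levels as a covariate. The enterocyte covariate was added after seeing the data. The fit was tested on simulated counts. Copies were searched with blastn 2.17.0 and exon overlaps with bedtools 2.31.1. Promoters came from RefSeq on GRCm38.p6, an older build than that of the counts.

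The genes and lists were chosen with earlier results of these data known. Of each role, the 2 genes with the smallest p (3 for the SSU processome and pre-60S) are given library by library. Other genes named are the 3 highest and 3 lowest per length, the 2 with the smallest p of each pathway list, 1 to 3 of other lists, Retsat and Myc, and up to 4 promoters with CACGTG. The remaining genes of the list are given by their differences.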

Additional observations from a re-analysis of the deposited data

Results flagged for a closer look

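A sample far from the others of its group was looked for in each of 82 groups of 5 libraries (Retsat, Myc and the 39 genes, in both genotypes), and 4 were found. Chance alone gives about 1 in 20 groups. Imp3 was at 27.5 CPM in RetSat ko 2, with the other 4 at 24 to 24.9. Noc2l, a partner of Noc3l in pre-60S assembly, was at 21.9 CPM in RetSat ko 1, with the other 4 at 34.3 to 37.9. Retsat was at 33.4 CPM in RetSat ko 5, with the other 4 at 15.4 to 16.8, and the control libraries at 340 to 576. Myc was at 9.88 CPM in control 2, with the other 4 at 13.4 to 14.8.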

How the results depend on the processing

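Under every alternative except the cell cycle and enterocyte covariates, all 39 genes kept a higher value in RetSat ko, with the median log2 fold change between 0.15 and 0.27. Leaving out 1 library in turn gave 0 to 16 of the 39 genes called, 0 to 16 of the 126 further pathway genes, 5 to 846 of all tested genes and a median of 0.15 to 0.27. The high ends came without RetSat ko 1, which was singled out by its values in these same genes. DESeq2 called 123 genes in all and 2 of the 39, and limma-voom with sample weights 10 and 0. For Retsat, leaving out the 4 libraries richest in acinar RNA gave a log2 fold change of -4.51 that was no longer past the threshold (adjusted p = 0.0918, edgeR, 3 against 3 libraries). With the cell cycle level as a covariate the median of the 39 was -0.01, with 21 lower values. Of the 16 genes given library by library, the sign turned for Polr1b (-0.11), Polr1a (-0.14), Utp20 (-0.01), Tsr1 (-0.07) and Rrp12 (-0.12). With the enterocyte level 9 of the 39 had a lower value, and of the same 16 it turned for Polr1b (-0.01), Polr1a (-0.10) and Tsr1 (-0.01). In both, the covariate differs between the groups, and the cause was not tested. Same-numbered libraries did not vary together (correlations of -0.229 to 0.014, and no library correlated best with its own number). With the replicate number as a block, 4 genes in all and 0 of the 39 were called, and the median was 0.19. In that fit 11 of the 39 were higher at an unadjusted p under 0.05 (edgeR), as were 991 of 18654 tested genes. Depth gave these genes at least 761 counts in every library. Their median SD (log2) was 0.0863 in control, 0.229 in RetSat ko and 0.117 in RetSat ko 2 to 5, beside a median difference of 0.20.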
